A study of Mus musculus with 8 samples.

Results

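The mouse mitochondrial chromosome encodes 7 subunits of respiratory complex I, namely mt-Nd1, mt-Nd2, mt-Nd3, mt-Nd4, mt-Nd4l, mt-Nd5 and mt-Nd6. All 7 had a row in the gene expression table, among 13 mitochondrially encoded mRNAs and 18770 genes in all. These genes were chosen by name, with their difference between alpinetin (AP) and vehicle control (VC) libraries already known. Their levels, fold changes, shares and ratios between AP and VC are therefore given as a description, and nothing is read from them. The fits over all genes include these 7, and their calls are printed as part of that description only.

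Messenger RNA was sequenced from dermis with hair follicles, without the interfollicular epidermal keratinocytes, of the dorsal skin of male C57BL/6 wildtype mice aged 7 to 8 weeks at D4 after depilation. AP mice had been given topical alpinetin, 3 mg/ml in a volume of 20 µl of 65% ethanol, whereas VC mice had been given 65% ethanol alone, with 4 libraries per group. The table gives normalized counts, which are reads per gene divided by a size factor of the library. AP and VC libraries are numbered as the table numbers them, and the study describes the samples of a group as separate mice. The p-values rest on the spread between the libraries of these mice, which may in part be technical. Limma moderates this spread along a trend with the mean level, the intensity trend. Between 6454563 and 7264151 reads were counted on genes per VC library, and between 8507783 and 11190113 per AP library. Markers of the labelled tissue were present in every library. The dermal fibroblast gene Col1a1 averaged 36683 ± 21309 normalized counts for VC and 55218 ± 24981 for AP (SD, n = 4), and the follicle keratin Krt15 had 4351 ± 1107 and 5571 ± 2424 (SD, n = 4).

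Complex I, the NADH:ubiquinone oxidoreductase of the inner mitochondrial membrane, takes electrons from NADH, passes them to ubiquinone and pumps protons. Its mitochondrially encoded subunits build the core of the membrane arm, while the arm that binds NADH and the accessory subunits are encoded in the nucleus. The mitochondrial genes are transcribed as long precursors from both strands, known as heavy and light, and the precursors are cut into single mRNAs, most of which receive a short poly(A) tail.

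Mt-Nd1 (ENSMUSG00000064341) encodes the subunit at the joint of both arms, beside the ubiquinone channel. Its level was 877840, 498002, 396855 and 635839 normalized counts over VC.1 to VC.4, and 75608, 54892, 33146 and 78217 over AP.1 to AP.4. The groups did not overlap, and AP.3 was the lowest of the 8 libraries. The VC mean was 9.96 times the AP mean, and the log2 fold change of AP over VC was -3.33 (SE 0.79), on the scale of log2(value + 1).

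Mt-Nd2 (ENSMUSG00000064345), mt-Nd4 (ENSMUSG00000064363) and mt-Nd5 (ENSMUSG00000064367) encode the antiporter-like subunits of the membrane arm. Mt-Nd2 had 653848, 400904, 314341 and 569803 normalized counts over VC.1 to VC.4 and 59750, 32330.0, 24416 and 54438 over AP.1 to AP.4. Mt-Nd4 had 562378, 382734, 316881 and 550385 in the VC libraries, and the AP libraries had 55421, 32159, 24061 and 53554, in the same order. Mt-Nd5 had 597055, 377106, 303181 and 575921 in the VC libraries and 59716, 30453, 24569 and 50524 in the AP libraries. All 3 genes ranked the libraries alike, with VC.1 highest and VC.3 lowest in the VC group, and AP.1 highest and AP.3 lowest in the AP group. Their log2 fold changes were -3.54 (SE 0.69) for mt-Nd2, -3.50 (SE 0.67) for mt-Nd4 and -3.52 (SE 0.68) for mt-Nd5.

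Mt-Nd3 (ENSMUSG00000064360), mt-Nd4l (ENSMUSG00000065947) and mt-Nd6 (ENSMUSG00000064368) encode small membrane subunits that sit between the joint and the antiporter-like subunits. Mt-Nd6 had 192208, 127586, 96574 and 182630 normalized counts over VC.1 to VC.4 and 21966, 10344, 8813 and 18033 over AP.1 to AP.4. Mt-Nd3 had far lower levels, with 2125, 1079, 1342 and 1281 in the VC libraries and 190.0, 193.0, 79.7 and 196.0 in the AP libraries. AP.3 stood apart from the other AP libraries in mt-Nd3. Mt-Nd4l was near the detection limit in the AP group, with 8.70, 7.55, 4.98 and 7.87 normalized counts, against 91.0, 93.1, 109.2 and 110.6 in the VC libraries. Behind these values stood 50 to 80 reads per VC library and 10 to 14 per AP library. The log2 fold changes were -3.39 (SE 0.45) for mt-Nd6, -3.18 (SE 0.30) for mt-Nd3 and -3.64 (SE 0.34) for mt-Nd4l.

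**Figure D1:**
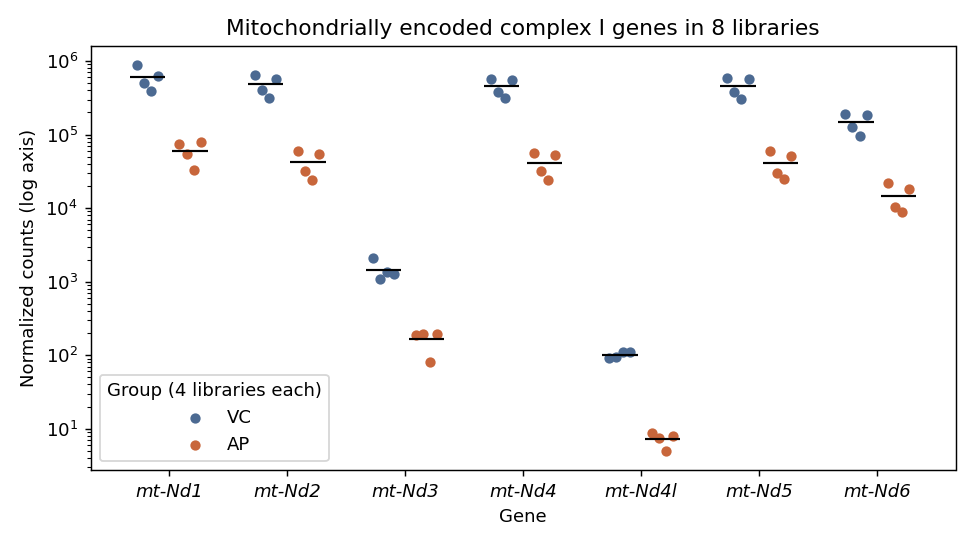
Normalized counts of the 7 genes on a log axis, with a point for each of 4 VC and 4 AP libraries and a black bar at the group mean. In each gene all 4 AP points lie below all 4 VC points, and mt-Nd3 and mt-Nd4l lie far below the other 5 genes.

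All 7 genes passed the filter of at least 3 normalized counts in at least 4 libraries. The limma fit over the 15964 genes tested called all 7 lower in the AP group at an adjusted p under 0.05, where 4.0% of all genes tested were called lower and 6.33% higher. Every AP library was below every VC library in 7 of 7, as in 8.91% of all genes tested. Because the genes were chosen on this contrast, nothing is read from these counts. Of the 15964 genes, 14 had a log2 fold change below that of mt-Nd3, and the other 6 members were among them. So were mt-Co1 (-3.37) and mt-Cytb (-3.38), whereas mt-Co2, mt-Co3 and mt-Atp6 had -2.91, -2.98 and -2.80. Limma did not call mt-Co1 (SE 1.60, adjusted p = 0.180) or mt-Cytb (SE 1.04, adjusted p = 0.0578), although their groups did not overlap. Mt-Co2, mt-Co3 and mt-Atp6 were called lower. The SEs are moderated along the intensity trend, so they are not the spread between libraries alone. Scaling by total counts moved the median over all genes tested from 0.06 to 0.90 (log2) and the calls from 1011 higher and 639 lower to 8670.0 higher and 65 lower. Without AP.3 the calls were 211 and 96, without AP.4 257 and 147, without AP.2 385 and 155, and without VC.1 584 and 255, and 3 of the 7 genes were called lower without AP.2 and 3 without AP.3. With total counts as the scaling, the median of the 7 genes moved from -3.50 to -2.63. Relative to the median of all genes it was -3.56 with the table's scaling and -3.53 with total counts.

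As a share of all reads, the 7 genes took 21.8%, 17.7%, 16.2% and 20.8% over VC.1 to VC.4 and 4.42%, 2.74%, 2.06% and 4.02% over AP.1 to AP.4. All 13 mitochondrial mRNAs took 54.3%, 44.9%, 42.1% and 52.3% of the reads in the VC libraries and 11.1%, 7.85%, 5.32% and 10.3% in the AP libraries. The reads of nuclear genes were fewer in the VC group (3080758 to 3762217 per library) than in the AP group (7561598 to 10594787), and the VC libraries also held fewer reads in all.

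Within the mitochondrial total the groups were close. The 7 genes together took 40.2%, 39.4%, 38.4% and 39.8% of the mitochondrial mRNA reads over VC.1 to VC.4 and 39.7%, 34.9%, 38.8% and 38.9% over AP.1 to AP.4. The groups overlapped, with means of 39.4% ± 0.79 and 38.1% ± 2.15 (SD, n = 4), and AP.2 was the lowest library. Without AP.2 the difference of AP minus VC changed from -1.34 to -0.28 percentage points.

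Each gene's own share of the mitochondrial mRNA reads also overlapped between the groups. Mt-Nd1 held 10.98% ± 0.92 for VC and 11.5% ± 0.49 for AP (SD, n = 4). The antiporter-like genes held 8.85% ± 0.30 and 8.07% ± 0.72 for mt-Nd2, 8.37% ± 0.37 and 7.84% ± 0.56 for mt-Nd4, and 8.47% ± 0.43 and 7.83% ± 0.90 for mt-Nd5, in VC and AP. Mt-Nd6 held 2.74% ± 0.13 and 2.79% ± 0.40. Mt-Nd3 held 0.027% and 0.032%, and mt-Nd4l held 0.0020% and 0.0014%. AP.2 was the lowest AP library for mt-Nd2, mt-Nd4, mt-Nd5 and mt-Nd6 and the highest for mt-Nd1 and mt-Nd3.

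Levels of different genes were compared within each library as reads per kilobase of gene, a comparison that does not use the treatment. The order by the mean log2 level was mt-Nd1, mt-Nd2, mt-Nd4, mt-Nd6, mt-Nd5, mt-Nd3 and mt-Nd4l. In VC.1 the values were 504261, 346283, 224353, 203590, 179946, 3356 and 168.4 reads per kilobase in that order. In AP.3, the library with the fewest mitochondrial reads, they were 69515, 47210, 35045, 34083, 27035, 459.8 and 33.7. Neighbours were tested with an exact 2-sided sign-flip permutation test over the 8 libraries, whose smallest p is 0.00781, adjusted over the 6 pairs. The pairs and their direction came from the order in these same libraries, and the p-values are not adjusted for that choice. They describe how alike the libraries were in each step of reads counted.

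Mt-Nd1 was above mt-Nd2 in 8 of 8 libraries, by 0.53 ± 0.18 on the log2 scale (SD, n = 8, exact permutation test, adjusted p = 0.00938). The step from mt-Nd2 to mt-Nd4 was 0.47 ± 0.07 and was also seen in 8 of 8 libraries (adjusted p = 0.00938, exact permutation test). Mt-Nd4 and mt-Nd6 were closest, with a log2 ratio of 0.15 ± 0.12 that was above 0 in 7 of 8 libraries and -0.07 in AP.1 (adjusted p = 0.0234, exact permutation test). Mt-Nd6 exceeded mt-Nd5 by 0.25 ± 0.08 in 8 of 8 libraries (adjusted p = 0.00938, exact permutation test). Below mt-Nd5 the levels dropped steeply. Mt-Nd5 was 53.7 times as high as mt-Nd3, and mt-Nd3 was 14.9 times as high as mt-Nd4l, each in 8 of 8 libraries (adjusted p = 0.00938, exact permutation test).

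**Figure D2:**
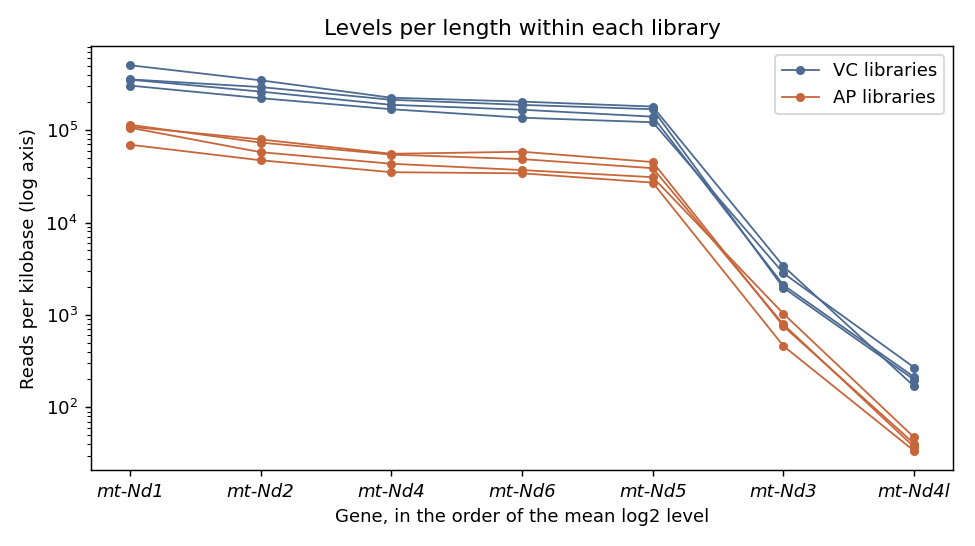
Reads per kilobase of each gene on a log axis, with a line for each library and the genes in the order of their mean log2 level. The lines run nearly parallel from mt-Nd1 to mt-Nd5 and drop to mt-Nd3 and mt-Nd4l in all 8 libraries.

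The length behind the level changed the direction or the call of 3 of these steps. With the effective length, which is the gene length minus 100, mt-Nd4 over mt-Nd6 was -0.06 and was not called (adjusted p = 0.25, exact permutation test). A further scale, chosen after the data had been seen, divides the reads by the number of 50-base words found in no other annotated transcript. On it mt-Nd4 was above mt-Nd2, with a log2 ratio of mt-Nd2 over mt-Nd4 of -0.79 (adjusted p = 0.00938, exact permutation test), and mt-Nd4 over mt-Nd6 was 1.46 (log2) against 0.15 per kilobase. These genes have 908 (mt-Nd2), 502 (mt-Nd4) and 470 (mt-Nd6) such words. Mt-Nd3 has 6 among its 299 words and mt-Nd4l 3 among 248, so all the reads of these genes are divided by a few words, and the result is not a measured level. With that limit, mt-Nd5 (1640 words) over mt-Nd3 was 0.04 on this scale and was not called (adjusted p = 0.781, exact permutation test), and mt-Nd3 over mt-Nd4l was 3.12 (log2) against 3.90 per kilobase.

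Among the 13 mitochondrial mRNAs, mt-Co1 and mt-Cytb ranked first by mean reads per kilobase, followed by mt-Nd1, mt-Nd2, mt-Nd4, mt-Nd6 and mt-Nd5, in both groups. The levels followed no simple gradient along the chromosome. Mt-Nd1 lies first on the plus strand and mt-Cytb last, and the low genes from mt-Co2 to mt-Nd4l lie together between mt-Co1 and mt-Nd4. Of these 6 genes, mt-Co2, mt-Atp6, mt-Co3, mt-Nd3 and mt-Nd4l share at least 98.0% of their 50-base words with other annotated transcripts whereas mt-Atp8, the lowest of the 13 per kilobase in both groups, shares 0. Only annotated transcripts were searched, so the 0 of mt-Atp8 does not show that it has no copy. Its neighbours mt-Atp6 and mt-Co2 have copies in Gm10925 (chr1:24613974-24614651) and Gm28661 (chr1:24614885-24615565). The bases between these copies were not examined. Over all 18770 genes, mt-Nd1 ranked 3 in mean reads per kilobase in both groups, and mt-Nd5 ranked 7 for VC and 8 for AP. Mt-Nd3 ranked 88 and 561, and mt-Nd4l ranked 907 and 8780, in VC and AP.

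Of the 7 genes, mt-Nd6 alone is annotated on the minus strand of the reference (chrM:13552-14070, GRCm38), where it is read from the light strand promoter. Its mRNA is known in human cells to lack a stable poly(A) tail. Per kilobase, the median of the 6 plus strand genes over mt-Nd6 was -0.01, -0.02, 0.09 and 0.02 on the log2 scale over VC.1 to VC.4 and -0.21, 0.01, -0.13 and -0.06 over AP.1 to AP.4. It was above 0 in 3 of 8 libraries, with a mean of -0.04 ± 0.10 (SD, n = 8, exact 2-sided sign-flip permutation test, p = 0.305). The direction depended on how the 6 genes were combined. Their summed reads over their summed length exceeded mt-Nd6 by 0.21 on the log2 scale (p = 0.00781, exact permutation test), and with the effective length the median gave -0.25 (p = 0.00781, exact permutation test).

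The median hid a wide spread. Mt-Nd1 stood above mt-Nd6 by 1.14 ± 0.21 on the log2 scale over the 8 libraries, and mt-Nd2 by 0.61 ± 0.11. Mt-Nd5 was -0.25 ± 0.08 relative to mt-Nd6, mt-Nd3 was -6.00 ± 0.45 and mt-Nd4l was -9.90 ± 0.49. Between the groups, the ratio of mt-Nd5 to mt-Nd6 was -0.19 ± 0.04 in VC and -0.32 ± 0.05 in AP without overlap, and the other 5 ratios to mt-Nd6 overlapped (SD, n = 4). How often such ratios separate over all genes was not computed, and nothing is read from this difference.

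The strand difference was visible in base composition. The mt-Nd6 mRNA held 28.1% G and 5.97% C, whereas the other 6 held 8.00% to 11.6% G and 22.1% to 29.97% C. The first 30 bases of each mRNA are shown with the start codon in capitals, since 4 kinds of start codon other than the ATG of mt-Nd4, mt-Nd4l and mt-Nd6 occur among the 7 genes.
mt-Nd1: GTGttctttattaatatcctaacactcctc
mt-Nd2: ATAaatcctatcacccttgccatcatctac
mt-Nd3: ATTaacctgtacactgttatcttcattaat
mt-Nd4l: ATGccatctaccttcttcaacctcaccata
mt-Nd4: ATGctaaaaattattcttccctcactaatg
mt-Nd5: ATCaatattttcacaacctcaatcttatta
mt-Nd6: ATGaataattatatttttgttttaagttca
Mt-Nd1 starts with GTG, mt-Nd2 with ATA, mt-Nd3 with ATT and mt-Nd5 with ATC. The mt-Nd4 sequence holds 459 full codons and 1 further base, and ends without a full stop codon.

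Mt-Nd5 and mt-Nd6 face each other tail to tail and share 14 bases on opposite strands. The ends of both mRNAs are shown with the shared bases in capitals.
mt-Nd5, chrM:13526-13565, plus strand: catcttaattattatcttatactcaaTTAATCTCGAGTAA
mt-Nd6, chrM:13552-13591, minus strand: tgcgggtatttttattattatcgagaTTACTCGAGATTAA
Whether the counting used strand is not given in the sources used here. Without strand, reads of mt-Nd6 and reads of the opposite transcript over its 519 bases cannot be told apart. Mt-Nd4l and mt-Nd4 overlap on the same strand by 7 bases, in capitals below, and are known to stay together on 1 mRNA.
mt-Nd4l, chrM:10134-10173, plus strand: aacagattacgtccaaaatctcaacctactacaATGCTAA
mt-Nd4, chrM:10167-10206, plus strand: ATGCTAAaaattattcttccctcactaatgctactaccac
Leaving out bases shared with another annotated gene kept the order of the 7 genes and the call of each step.

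Mt-Nd3 and mt-Nd4l, the lowest of the 7 genes, have near-identical copies in the nuclear genome, and their values are uncertain where reads could have been placed on either copy. Of the 50-base words of mt-Nd3 (chrM:9459-9806), 98.0% also occur in Gm28438 (chr1:24612775-24613119), and of those of mt-Nd4l (chrM:9877-10173), 98.8% occur in Gm10222 (chr1:24612407-24612700). Both are unprocessed pseudogenes on the minus strand of chromosome 1. Mt-Nd4 (chrM:10167-11544) shares its first 876 of 1378 bases with Gm28439 (chr1:24611535-24612410), which holds 62.2% of its 50-base words. The share was 8.19% in mt-Nd2 (chrM:3914-4951), 7.61% in mt-Nd5 (chrM:11742-13565), and 0 in mt-Nd1 (chrM:2751-3707) and mt-Nd6. Genome sequence outside annotated transcripts was not searched, so these shares do not cover copies without annotation. The values of the 3 pseudogenes were not analysed here.

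**Figure D3:**
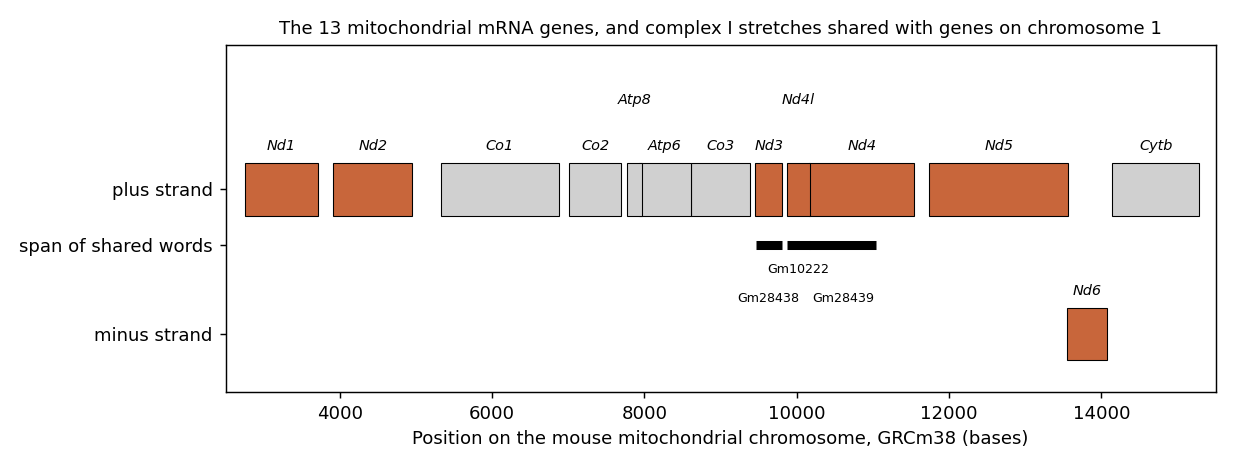
Map of the 13 mitochondrial mRNA genes on GRCm38 to scale, with the 7 complex I genes in orange and the other 6 in grey, by strand. Black bars mark where words of mt-Nd3, mt-Nd4l and mt-Nd4 recur in genes on chromosome 1, from base 4 of mt-Nd3 to base 876 of mt-Nd4.

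Over 294 bases mt-Nd4l and Gm10222 did not differ at any base. The whole mt-Nd4l gene is printed, since no read within these 294 bases can be placed by its sequence. The last 3 bases of the gene lie outside the copy.
mt-Nd4l, chrM:9877-10173, plus strand: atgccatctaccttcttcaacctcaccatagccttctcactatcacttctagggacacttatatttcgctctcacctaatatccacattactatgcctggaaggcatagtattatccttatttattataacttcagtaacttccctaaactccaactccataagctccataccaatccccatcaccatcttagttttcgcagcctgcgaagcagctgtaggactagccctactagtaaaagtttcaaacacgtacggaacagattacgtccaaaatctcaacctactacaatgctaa
Mt-Nd3 and Gm28438 differed at 1 of 345 aligned bases, the substitution T3C, counted from 1 at the first base of mt-Nd3 with its base first. The first 60 bases of mt-Nd3 are shown with that base in capitals.
mt-Nd3, chrM:9459-9518, plus strand: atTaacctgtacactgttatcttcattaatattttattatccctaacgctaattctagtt
In mt-Nd4 the shared stretch ends inside the gene. The 60 bases around its edge (chrM:11013-11072, plus strand) carry the shared part in capitals.
mt-Nd4 edge: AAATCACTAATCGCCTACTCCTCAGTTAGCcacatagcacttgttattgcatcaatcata
The 502 bases of mt-Nd4 after this edge were found in no other annotated transcript. Divided by the words found in no other annotated transcript, mt-Nd4 had 615.9, 515.9, 462.3 and 584.7 reads per word over VC.1 to VC.4 and 152.2, 118.8, 96.2 and 149.2 over AP.1 to AP.4. This scale would hold only if reads with other matches had been left uncounted. It also assumes reads as long as the words and no copies outside annotated transcripts, and neither is known here. On it mt-Nd4 was the highest of the 7 genes in all 8 libraries. Mt-Nd1 had 531.5, 371.1, 320.1 and 373.5 in VC and 114.8, 112.1, 73.3 and 120.4 in AP. Of the other low mitochondrial mRNAs, mt-Co3 shared 99.9% of its 50-base words with other annotated transcripts and mt-Atp6 99.5%, whereas mt-Atp8 shared 0 and had 0 to 9 reads per library. The 0 of mt-Atp8 covers annotated transcripts only, and 43 of its bases overlap mt-Atp6. The part of shared sequence in the low levels was not tested.

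The nuclear part of complex I was described from 54 genes, of which 52 had a row and were tested. These were 7 core subunits, 29 accessory subunits and 16 assembly factors. In the limma fit over all genes, 15 of the 52 fell in the AP group and 0 rose, at an adjusted p under 0.05, where 4.0% of all genes tested fell and 6.33% rose. At an unadjusted p under 0.05 the numbers were 30 and 1, against 13.3% and 17% of all genes. EdgeR called 17 lower and 0 higher (4.46% and 6.28% of all genes), and DESeq2 called 24 and 0 (8.53% and 10.5%). Without its intensity trend, limma called 1 of the 52 lower, Ndufb7, and 0 higher, shares near or below the 1.35% and 2.36% of all genes in that fit, and the other nuclear genes named here had adjusted p-values of 0.0509 to 0.0881. The median log2 fold change was -0.50 in these genes and 0.06 in all genes tested, and 48 of the 52 lay below the median of all genes. By role, 2 of 7 core subunits, 12 of 29 accessory subunits and 1 of 16 assembly factors were called lower, the last a share near the 4.0% of all genes.

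With total counts as the scaling, which moved the median of all genes to 0.90, 0 of the 52 were called lower and 12 higher, where 0.403% of all genes were lower and 53.7% higher, so a smaller share of the 52 than of all genes was called higher. Their median was then 0.37, and 48 of 52 again lay below the median of all genes. Total counts include the mitochondrial reads, and with total counts without the mitochondrially encoded genes 14 of the 52 were called lower and 0 higher (3.37% and 5.99% of all genes), with a median of -0.46 against 0.10 for all genes. Without AP.3, 1 of the 52 was called lower (0.611% of all genes), and without AP.2, AP.4 or VC.1 the numbers were 2, 4 and 4 (0.987%, 0.934% and 1.61% of all genes). Without VC.2, 1 of the 52 was called higher (6.27% of all genes).

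Among the accessory subunits, Ndufb7 (chr8:83566671-83571626) had 909.5, 744.8, 663.6 and 712.5 normalized counts over VC.1 to VC.4 and 464.9, 335.9, 301.4 and 379.8 over AP.1 to AP.4. All AP libraries were lower, and it fell by 1.04 on the log2 scale (SE 0.17, adjusted p = 0.00932 by limma), the largest decrease of the 15, and was called whichever library was left out. Ndufa13, also known as GRIM-19, had 851 ± 186 and 415 ± 94.4 (SD, n = 4), and fell by 1.04 (SE 0.20, adjusted p = 0.0151). Ndufa5, Ndufa2, Ndufa3, Ndufs6, Ndufb4 and Ndufab1, the last of which is also the mitochondrial acyl carrier protein, fell by 0.76 to 0.96. Ndufa13 was not called without AP.3, and the other 6 were not called without AP.2 or AP.3. The call was also lost without AP.4 for Ndufa3, without AP.4 or VC.1 for Ndufa2, Ndufs6 and Ndufab1, and without VC.1 or VC.2 for Ndufb4. Ndufa3 was far higher in VC.1 (964 normalized counts) than in the other VC libraries (604 to 615).

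Of the core subunits that carry electrons, Ndufs7, which holds the last iron-sulfur cluster before ubiquinone, fell by 0.79 (SE 0.18, adjusted p = 0.0230 by limma), from 915 ± 79.5 to 537 ± 137 (SD, n = 4). Ndufv2 fell by 0.64 (SE 0.17, adjusted p = 0.0355), from 1015 ± 150 to 654 ± 107. The assembly factor that fell was Tmem126b, by 0.77 (SE 0.20, adjusted p = 0.0352), from 217 ± 42.6 to 125 ± 15.9. Ndufs7, Ndufv2 and Tmem126b were not called without AP.2, AP.3, AP.4 or VC.1, nor was Ndufv2 without VC.3 or VC.4 or Tmem126b without VC.2, and with total counts as the scaling the 3 log2 fold changes were 0.08, 0.23 and 0.09.

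**Figure D4:**
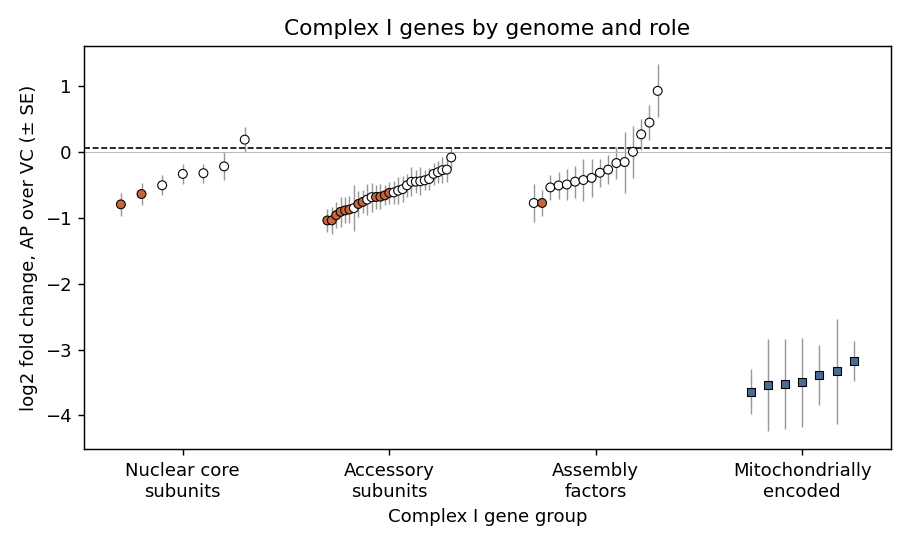
Log2 fold changes of AP over VC with their SE for complex I genes by role, filled circles for nuclear genes with an adjusted p under 0.05 and squares for the 7 mitochondrially encoded genes, which are shown as a description. With total counts as the scaling the median of the nuclear genes is 0.37. The dashed line is the median of all genes tested, 0.06, and the squares lie between -3.64 and -3.18.

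The level of the mitochondrial genes relative to the nuclear core subunits differed in scale between the groups. Averaged per kilobase over mt-Nd1, mt-Nd2, mt-Nd4, mt-Nd5 and mt-Nd6 and divided by the mean of the 7 nuclear core subunits, it was 1334, 893, 742 and 1464 over VC.1 to VC.4 and 163, 122, 94.6 and 184 over AP.1 to AP.4. The groups did not overlap, with means of 1108 ± 345 and 141 ± 40.03 (SD, n = 4). This ratio does not depend on the scaling between libraries.

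Markers of other cell types also differed between libraries. Skeletal muscle, which lies beneath the dermis of the mouse back, is rich in mitochondria. All 14 muscle genes were measured, and their summed level was 62305, 91471, 48811 and 48664 normalized counts over VC.1 to VC.4 and 92543, 11837, 7047 and 14613 over AP.1 to AP.4. In 3 AP libraries the sum was below every VC library, and in AP.1 it was above every VC library. The most abundant muscle gene, Acta1, had 18846 ± 6030 and 7604 ± 8922 normalized counts (SD, n = 4), and none of the 14 was at 0 throughout a group. The median log2 fold change of the 14 was -1.78 against 0.06 for all genes, with 14 of 14 below 0, and with total counts it was -0.91 against 0.90, with 13 of 14 below 0. By limma 1 of the 14 was called lower (4.0% of all genes), 11 at an unadjusted p under 0.05 (13.3% of all genes), and 14 of 14 without AP.1 (5.17% of all genes). The number was 0 with any other library left out, without the intensity trend, and with edgeR, DESeq2 or total counts. In AP.1, as in the other AP libraries, the 7 mitochondrial genes were below every VC library, and the part of muscle in their levels was not tested. In bulk tissue, fewer cells of a type and less RNA per cell cannot be told apart.

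Of 10 suprabasal keratinocyte genes 9 rose in the AP group at an adjusted p under 0.05 by limma (6.33% of all genes). Krt10 was the most abundant, at 2376 ± 1207 normalized counts for VC and 38536 ± 27358 for AP (SD, n = 4). Their summed level was 5625, 13013, 8619 and 5839 normalized counts over VC.1 to VC.4 and 38221, 40066, 104707 and 156106 over AP.1 to AP.4, although interfollicular epidermis had been removed. The 13 mitochondrial mRNAs took 11.1%, 7.85%, 5.32% and 10.3% of the reads over AP.1 to AP.4, and a relation to the keratinocyte sum was not tested. By limma 0 genes of the fibroblast, hair follicle, adipocyte and leukocyte lists were called in either direction, with 10, 10, 9 and 8 genes tested. At an unadjusted p under 0.05, 2, 0, 2 and 2 of them were higher and 2, 1, 0 and 2 lower, against 17% and 13.3% of all genes. DESeq2 called 2, 1, 0 and 1 of them lower (8.53% of all genes) and edgeR 1, 1, 0 and 0 (4.46%). Total counts called 8, 7, 5 and 4 higher, against 53.7% of all genes. With lists of this size, nothing is read from these counts. Without AP.1, 2 fibroblast genes were called lower (5.17% of all genes), without VC.2 1 fibroblast gene (3.18%), without VC.4 1 hair follicle gene (2.96%), and without VC.3 1 leukocyte gene in each direction (6.42% of all genes higher and 3.32% lower).

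Of 5 red blood cell genes, limma called Hbb-bs higher (6.33% of all genes), a call that was lost without AP.2, AP.4 or VC.1 and without the intensity trend. Total counts called 3 higher (53.7% of all genes). Hba-a2 had a log2 fold change of -0.81 (SE 0.29) and was not called. In this list 1 gene was lower at an unadjusted p under 0.05 (13.3% of all genes), and DESeq2 called 1 lower (8.53%). With total counts 0 of the 5 had a log2 fold change below 0. Of 4 nuclear-retained RNAs, limma called Neat1 and Kcnq1ot1 lower (4.0% of all genes). Of these 2 calls, 0 were made without AP.2, AP.3, AP.4, VC.1, VC.2 or VC.3 or with total counts (0.403% to 3.32% of all genes). The number was 1 without AP.1 (5.17% of all genes) or without the intensity trend (1.35%). The part of these cell types in the levels of the mitochondrial genes was not tested.

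Within a group, the libraries moved the mitochondrial genes together. After subtracting each group's mean log2 level, the 7 genes averaged 0.39, -0.22, -0.38 and 0.21 over VC.1 to VC.4 and 0.48, -0.15, -0.70 and 0.37 over AP.1 to AP.4. Over these 8 deviations the Pearson correlation lay between 0.916 and 0.997 in the 10 pairs among mt-Nd1, mt-Nd2, mt-Nd4, mt-Nd5 and mt-Nd6. It lay between 0.513 and 0.849 in the 11 pairs with mt-Nd3 or mt-Nd4l. The genes share library and size factor, and all but mt-Nd6 are cut from precursors of the same strand, so these values are a description.

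Of 11245 genes off the mitochondrial chromosome with a mean of at least 50 normalized counts, 5 followed the summed log2 level of the 7 genes most closely over the 8 libraries, which the difference between the groups dominates. They were Ap2s1 (r = 0.99), a subunit of the clathrin adaptor AP-2, Pdrg1 (r = 0.99), the corepressor Ctbp1 (r = 0.99), Hcfc1r1 (r = 0.99) and Ubxn1 (r = 0.99). Over the deviations from the group means r was 0.91, 0.84, 0.89, 0.93 and 0.91 in that order. Their fold changes were far smaller than those of the mitochondrial genes. Ap2s1 had 1523, 1287, 1131 and 1313 normalized counts over VC.1 to VC.4 and 744, 633, 557 and 660 over AP.1 to AP.4, with a log2 fold change of -1.02 (SE 0.15). With total counts as the scaling, the log2 fold change of Ap2s1 was -0.15, and those of Pdrg1, Ctbp1, Hcfc1r1 and Ubxn1 were above 0.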

How the data were processed

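Libraries of mRNA captured with oligo-dT were sequenced on a NovaSeq. The authors used STAR for alignment to mm10 and DESeq2 for the scaling of counts per gene. The methods name featureCounts as the counter and the submitters' processing notes name HTSeq. Versions, read length, the strand setting and the treatment of reads with several matches are not given in the sources used here. The deposited values are signal, namely reads per gene divided by a size factor of the library, and 0 columns of values were left unmapped. The columns of their own comparison (mean, fold change, p-values) were not used.

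Of 150160 values, 150160 were whole multiples of the library's smallest value (tolerance 0.001 reads), so the reads were recovered. limma 3.58.1 (R 4.3.3) with an intensity trend was fitted to log2(value + 1) where 4 or more of the 8 libraries reached 3 normalized counts, with Benjamini-Hochberg adjustment over all genes tested. On the recovered reads, edgeR 4.0.16 (quasi-likelihood) called 1003 genes higher and 712 lower, and DESeq2 1.42.0 called 1677 and 1362. Libraries held 6454563 to 11190113 reads, and 3 reads, taken as the floor, were 4.10 to 5.63 normalized counts in VC and 1.49 to 2.18 in AP libraries. Coordinates, lengths and 50-base words came from GENCODE M21 transcripts, in which all 18770 identifiers were found. Words were matched exactly on either strand, and copies were aligned with Biopython 1.88. Steps were tested on simulated data. The genes and lists were chosen with earlier results of these data known. Nuclear complex I genes were named if called, up to 10 per direction by fold change, or if among the 3 with the highest mean, and not every gene so chosen is described. Other settings of the pseudocount, filter, scaling, length and total, and each library left out in turn, were run as alternatives.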

Additional observations from a re-analysis of the deposited data

Results flagged for a closer look

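In 7 of 120 groups of 4 libraries, 1 library lay apart from the other 3 by more than Dixon's 95% critical share of the group's range, where chance gives about 1 in 20. Mt-Nd3 in AP.3 had 79.7 normalized counts, and the nearest AP library had 190.0. The share of mt-Nd4 in the mitochondrial mRNA reads was 7.00% in AP.2 and at least 8.08% in the other AP libraries. The log2 ratio of mt-Nd2 over mt-Nd4 per kilobase was 0.52 in AP.1 and at most 0.43 in the other AP libraries. The log2 ratio of mt-Nd3 over mt-Nd4l per kilobase was 4.32 in VC.1 and at most 3.39 in the other VC libraries. Ndufa3 had 964 normalized counts in VC.1 and at most 615 in the other VC libraries. AP.1 held the highest summed levels of the muscle list (92543, next 14613) and of the leukocyte list (14281, next 9526) among the AP libraries.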

How the results depend on the processing

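Over 1017 recomputed values of 62 results, 854 stayed on their side of the threshold or, with no test, within the spread between libraries (counts within 1.5 times). Of the others, 61 no longer passed the threshold, 2 newly passed it, 86 moved further and 14 reversed. In all 21 values changed sign, 7 of them values with no test. Unless a cause is given, the cause was not tested.

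Against 1011 genes higher and 639 lower, DESeq2 called 1677 and 1362, limma without its trend 376 and 216, and total counts 8670.0 and 65. With 1 library left out the ranges were 211 to 1061 and 96 to 812. Of the 7 mitochondrial genes, 3 to 7 were called. Of the nuclear complex I genes, 0 to 1 were called higher and 1 to 15 lower. The latter number was 24 with DESeq2, 1 without the trend and 0 with total counts, which called 12 higher (53.7% of all genes). With 1 library left out, the step from mt-Nd4 to mt-Nd6 was 0.12 to 0.18, and the plus strand median over mt-Nd6 was -0.06 to -0.02.

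Total counts shift every gene by construction. The medians became 0.90 over all genes, -2.63 for the 7 genes and 0.37 for the nuclear genes. Log2 fold changes that became positive were 0.0757 for Ndufs7, 0.0796 for Ndufb4, 0.0925 for Tmem126b, 0.11 for Ndufab1, 0.23 for Ndufv2, 0.22 for Pdrg1, 0.45 for Ctbp1, 0.0948 for Hcfc1r1 and 0.10 for Ubxn1.

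With the effective length, which shortens short genes most, mt-Nd4 over mt-Nd6 was -0.0551 and the plus strand median over mt-Nd6 was -0.25. Summed reads over summed lengths gave 0.21. Scaling by words found in no other annotated transcript was chosen after seeing the data. It gave -0.79 (50 bases) and -0.80 (100 bases) for mt-Nd2 over mt-Nd4, and 0.0419 and -0.0310 for mt-Nd5 over mt-Nd3, although mt-Nd3 has only 6 such words at either length. The planned scaling by words found once in the genome was not run.

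Mt-Nd4l rests on 10 to 14 reads per AP library, so its AP values carry a large counting error. How reads with several matches were counted is not given in the sources used here, which limits the levels of mt-Nd3, mt-Nd4l and mt-Nd4. The 8 libraries allow no permutation p under 0.00781.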
